A study of Mus musculus with 24 samples.

Results

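Injured dorsal root ganglia of CAST and DBA mice were compared directly, 5 days after the sciatic nerve was crushed. The libraries were chosen by their titles, CASTAx5d1 to CASTAx5d4 and DBAAx5d1 to DBAAx5d4, which gives 4 libraries of each strain and 8 of the 24 libraries of the series. All genes with a deposited value were considered, and 27287 of 38215 passed the filter on low values and were tested. The labels give strain, treatment and tissue, and no age, sex, allele or substrain of DBA. The series title names CAST/Ei, a strain derived from Mus musculus castaneus, and concerns regrowth of central axons in this strain.

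Naive ganglia of the same strains, with 4 libraries each, were used to ask which differences were present without a crush. Uninjured animals had sham injury according to the treatment protocol, whereas their titles say naive, and they are called naive here. The 8 libraries of C57 mice, 4 naive and 4 injured, entered the filter on low values and the estimate of the spread, and none of the comparisons between strains. They also entered the common reference of upper-quartile scaling, an alternative, and injured C57 reads are given for Sult3a1 and Fam213b. The design text counts the libraries of a group as biological quadruplicates without saying how many animals gave each, so p-values measure the spread between libraries.

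A dorsal root ganglion holds the cell bodies of sensory neurons, each wrapped by satellite glia, with Schwann cells along the axons and with resident macrophages, vessels and connective tissue. After a crush of the peripheral axon, the neurons switch on regeneration-associated genes such as the transcription factor Atf3 and lower many genes of mature sensory function, while macrophages and glia around them respond as well. Interferons are cytokines whose receptors activate factors that include Stat2 and Irf9, and these bind a promoter element that turns on a shared set of antiviral and antigen-presentation genes.

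The tissue label was checked on 5 genes of sensory neurons of the ganglion, Avil, Prph, Isl1, Pou4f1 and Scn10a, and all were detected in each of the 8 injured libraries. The FPKM of Prph, a neurofilament of peripheral neurons, was 175, 178, 179.7 and 175 in CAST and 199.9, 205, 187 and 196 in DBA, and that of Isl1, a transcription factor of sensory neurons, was 1.87, 1.87, 2.12 and 2.02 in CAST and 1.798, 1.64, 1.76 and 1.78 in DBA. Estimated library totals were 111 to 145 M reads (M, 1000000) in injured CAST and 98.9 to 115 M in injured DBA ganglia. FPKM here is fragments per kilobase of the whole gene span, introns included, and scaled to the reads of the library, so genes with long introns have low values and levels are compared only within a gene.

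Libraries of a strain were not all alike. On a principal component analysis of the 8 injured libraries, the first component held 74.4% of the variance and separated the strains, and the second held 7.71% and separated replicates 1 and 2 from replicates 3 and 4 in both strains. Injured DBA replicate 3 stood apart for genes induced by interferon, and values with and without it are given where they touch a result. In whole tissue, fewer cells of a type and less RNA per cell cannot be told apart, and this holds for every gene group below.

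Strain differences in the injured ganglia were widespread. Of 27287 genes tested, 13052 (47.8%) were called at an adjusted p under 0.05 by limma, and 12222 (44.8%) had no overlap between the 4 libraries of CAST and the 4 of DBA. Of the calls, 7214 (26.4% of the genes tested) were higher in CAST and 5838 (21.4%) higher in DBA. With upper-quartile scaling of the libraries the split turned, to 5467 higher in CAST and 7399 higher in DBA, so the balance of small differences depends on the scaling. Both a call and a ratio of mean FPKM of at least 2 were met by 2033 genes higher in CAST (7.45%) and 1477 higher in DBA (5.41%), and by 1819 and 1680 with that scaling. The median ratio of CAST to DBA over all genes tested was 1.03. Pseudogenes were called higher in CAST more often than higher in DBA, for 28.6% and 11.4% of the 3063 tested, against 28.1% and 24.9% of the 18010 protein-coding genes. Reads of both strains were aligned to mm10, the genome of C57BL/6J, and the part of sequence differences from it in these calls was not tested.

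Most differences were also present in naive ganglia, which are other libraries. There, 6439 genes (23.6%) were called higher in CAST and 5562 (20.4%) higher in DBA. The same direction was called before and after the crush for 8419 genes, which are 64.5% of the calls in injured and 70.2% of the calls in naive ganglia, and the opposite direction for 294. The interaction tests whether the difference between the strains itself differed between injured and naive ganglia. It was called for 2181 genes (7.99%) with a higher CAST minus DBA difference after crush and for 2036 (7.46%) with a lower one. Of the 2033 genes at least 2-fold higher in injured CAST, 1488 were also called higher in naive CAST and 480 had an interaction in the same direction. Of the 1477 at least 2-fold higher in injured DBA, 1059 were also called higher in naive DBA and 453 had an interaction in that direction.

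**Figure D1:**
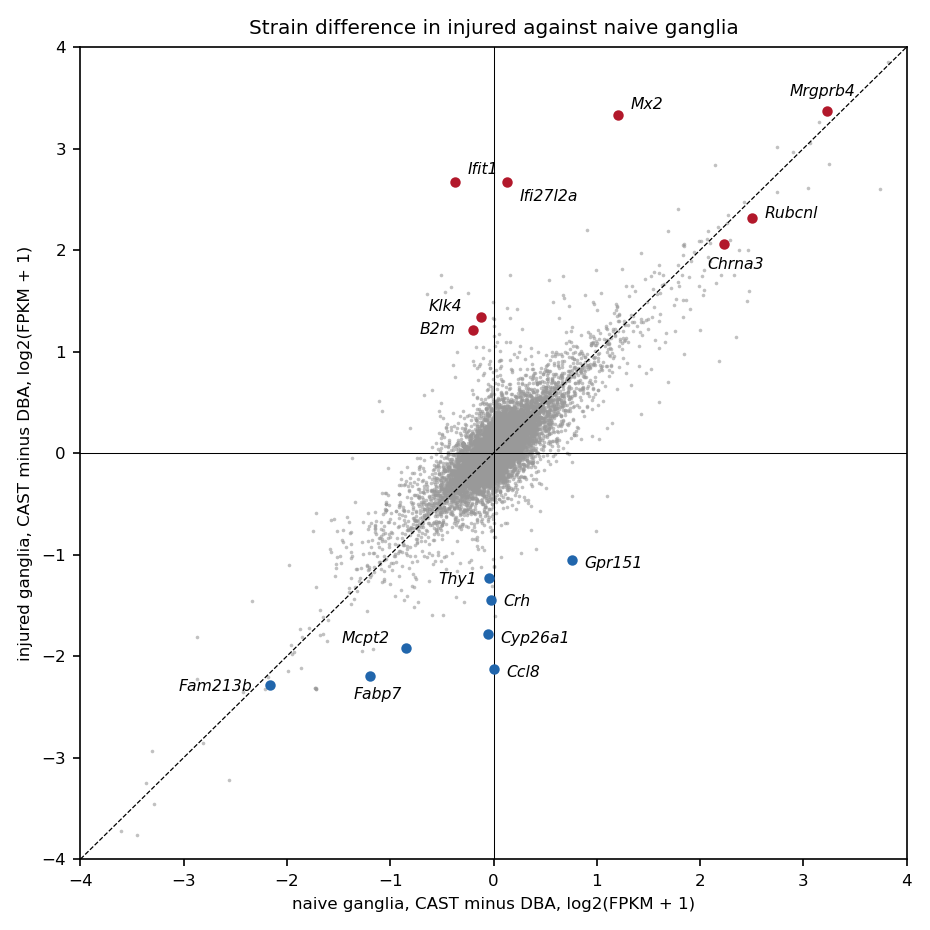
Each grey point is a gene tested, with the CAST minus DBA difference of mean log2(FPKM + 1) in naive ganglia on the x axis and in injured ganglia on the y axis, and coloured points are genes named in the text. Genes on the dashed line differ equally in both states, as Rubcnl and Chrna3 nearly do, whereas Ifit1 and B2m (higher in CAST) and Ccl8 and Crh (higher in DBA) lie near 0 on the x axis, and 7 of the 27287 genes lie outside the axes.

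Genes of known function were grouped into 39 lists, with 694 genes tested. Over all genes tested, 26.4% were called higher in injured CAST and 21.4% higher in injured DBA. Counts of calls in each list stand against these shares. The lists with the largest share of members higher in injured CAST were interferon response, MHC class I presentation and nociceptor genes. Those with the largest share higher in injured DBA were cholesterol synthesis, mast cells, myelinating Schwann cells and satellite glia.

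**Figure D2:**
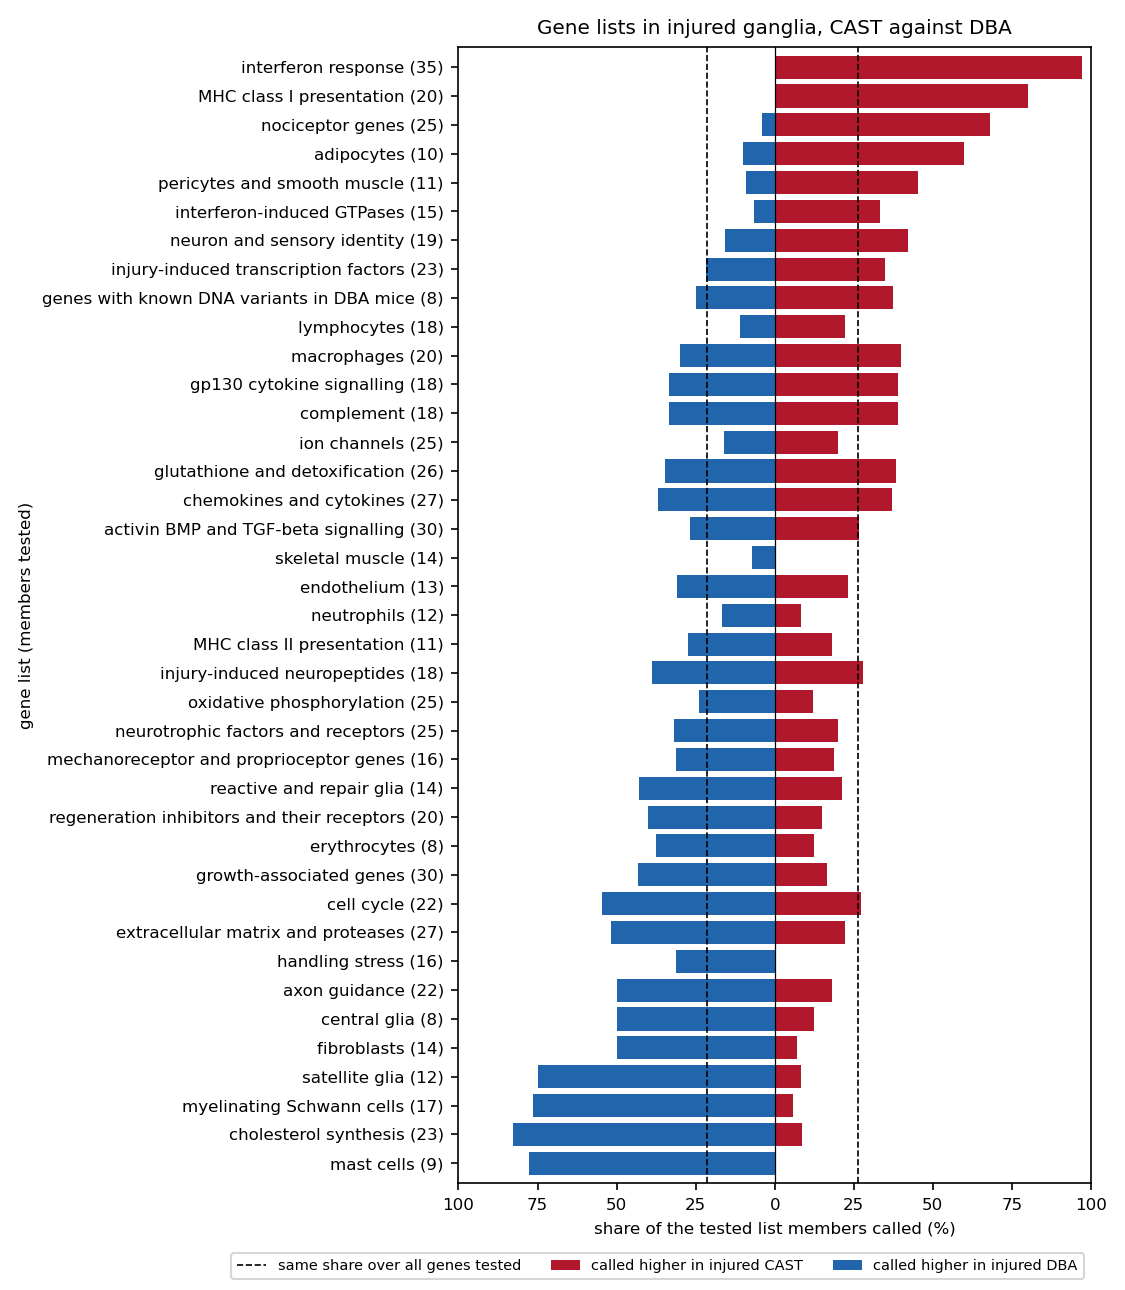
Bars show the percentage of the tested members of each gene list that limma called higher in injured CAST (red, to the right) or higher in injured DBA (blue, to the left), and dashed lines mark the same shares over all genes tested, 26.4% and 21.4%. Interferon response and MHC class I presentation have no blue bar, and mast cells, skeletal muscle and handling stress have no red bar.

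Genes of the interferon-response list were higher in injured CAST ganglia, with 1 exception. Of 35 tested members of the interferon-response list, 34 were called higher in CAST and 0 higher in DBA, against 26.4% and 21.4% of all genes. The exception was Parp14, a member of the ADP-ribosyltransferase family, at 0.709, 1.005, 0.411 and 0.502 FPKM in CAST and 0.475, 0.392, 0.598 and 0.399 FPKM in DBA (adjusted p = 0.0673), which was called higher in CAST without CAST replicate 3 or 4 or DBA replicate 3 (adjusted p = 0.00622, 0.0314 and 0.0319). At least 2-fold higher in CAST were 28 of the 35, against 7.45% of all genes, and the median ratio of the list was 3.81 against 1.03. In naive ganglia, 3 members were higher in CAST and 5 higher in DBA. The interaction was called for 33 members, each with a higher CAST minus DBA difference after crush, against 7.99% of all genes.

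Ifit1, Isg15 and Bst2 are shown with their promoters, because they were among the genes with the largest interaction and because these carry the kind of element that interferon-activated factors bind. The sequences are the reference sequence of C57BL/6J mice from RefSeq (GRCm38.p6, the build of mm10), not of CAST or DBA, and run 5′ to 3′ on the gene's strand from 250 bases before to 50 after the annotated start. Capitals mark matches to GAAANNGAAA on either strand, where N is any base, which read TTTCNNTTTC when the match is on the opposite strand. The windows are chr19:34640639-34640938 on the plus strand for Ifit1, chr4:156200769-156201068 on the minus strand for Isg15 and chr8:71537423-71537722 on the minus strand for Bst2.
Ifit1: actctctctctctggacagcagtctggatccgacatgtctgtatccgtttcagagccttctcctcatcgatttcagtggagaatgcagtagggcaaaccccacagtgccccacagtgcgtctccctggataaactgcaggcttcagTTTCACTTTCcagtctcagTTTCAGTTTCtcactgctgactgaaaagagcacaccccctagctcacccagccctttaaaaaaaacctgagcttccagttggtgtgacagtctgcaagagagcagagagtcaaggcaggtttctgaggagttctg
Isg15: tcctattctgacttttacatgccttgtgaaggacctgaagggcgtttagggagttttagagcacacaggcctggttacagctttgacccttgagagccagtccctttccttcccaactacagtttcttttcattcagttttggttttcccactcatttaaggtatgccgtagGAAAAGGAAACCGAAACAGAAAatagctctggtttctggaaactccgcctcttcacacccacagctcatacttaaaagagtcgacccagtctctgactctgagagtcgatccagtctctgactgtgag
Bst2: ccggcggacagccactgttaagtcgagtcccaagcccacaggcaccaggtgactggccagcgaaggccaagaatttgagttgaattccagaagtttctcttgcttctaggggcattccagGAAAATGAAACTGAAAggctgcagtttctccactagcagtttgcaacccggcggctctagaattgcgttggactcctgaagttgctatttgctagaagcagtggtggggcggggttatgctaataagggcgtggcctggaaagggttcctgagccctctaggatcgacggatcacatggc
The 2 matches of Ifit1 begin 104 and 85 bases before the start. The 3 matches of Isg15 overlap one another and begin 78, 72 and 66 bases before the start, and the 2 of Bst2 overlap and begin 130 and 124 bases before it. Of the 24 interferon-response genes with a promoter sequence, 14 had a match (58.3%), as did 8 of 9 interferon-induced GTPases (88.9%). A match was found in 5 of 17 genes of MHC class I presentation (29.4%). The same count over all tested genes with a promoter was 584 of 15403 (3.79%). Over single promoters, of tested genes or not, it was 1131 of 32851 (3.44%). Matches were found in 0 of 7 mast cell genes and in 1 of 16 genes of cholesterol synthesis (6.25%). A match is a description of these letters and not a bound site, and whether CAST and DBA carry the same letters was not analysed here.

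Ifit1, which binds foreign RNA, was at 16.1, 18.96, 7.37 and 7.93 FPKM in CAST and 0.838, 0.838, 1.39 and 0.944 FPKM in DBA in injured ganglia. All 4 CAST libraries lay above all 4 DBA libraries, and CAST replicates 1 and 2 were higher than replicates 3 and 4. The ratio was 12.5-fold (log2 difference 2.67, SE 0.22, adjusted p = 2.84e-09). In naive ganglia the means were 0.286 and 0.656 FPKM in CAST and DBA (adjusted p = 0.181), and the interaction was 3.04 on the log2 scale (adjusted p = 4.45e-07).

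Isg15, a ubiquitin-like modifier, was at 15, 19.03, 7.402 and 11.5 FPKM in CAST and 3.12, 3.05, 3.48 and 2.44 FPKM in DBA (4.37-fold, adjusted p = 3.53e-07). In naive ganglia it was 2.15-fold higher in DBA (adjusted p = 0.0438), so the strains changed places after the crush. Bst2, a membrane protein that holds budding viruses on the cell, went the same way, at 12.7, 11.8, 7.57 and 7.11 FPKM in CAST and 2.26, 2.22, 3.26 and 1.91 FPKM in DBA in injured ganglia (4.06-fold, adjusted p = 3.51e-08) and at means of 0.834 and 1.45 FPKM in naive CAST and DBA (adjusted p = 0.0384).

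Ifi27l2a, an interferon-induced gene, was at 28.02, 20.4, 18.5 and 21.3 FPKM in CAST and 2.61, 2.89, 3.26 and 1.76 FPKM in DBA (8.38-fold, adjusted p = 2.98e-11). Its groups were far apart and its naive means were 1.402 and 1.22 FPKM (adjusted p = 0.558). Ifit3 and Ifit3b, neighbours of Ifit1 on chromosome 19 with similar sequences, were 4.101-fold and 4.86-fold higher in CAST (adjusted p = 5.83e-05 and 1.83e-05).

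The GTPases Mx1 and Mx2, which block viral replication, had the largest ratios of the list. Mx2 was at 16.1, 14.7, 9.87 and 9.702 FPKM in CAST and 0.348, 0.277, 0.348 and 0.311 FPKM in DBA, which is 39.2-fold higher in CAST (log2 difference 3.33, SE 0.10, adjusted p = 9.1e-16). Unlike the genes above, Mx2 was also 12.6-fold higher in naive CAST (adjusted p = 5.95e-09), with an interaction of 2.12 (adjusted p = 1.81e-09). Mx1 was at 1.01, 1.23, 0.5697 and 0.602 FPKM in CAST and 0.0213, 0.0248, 0.0257 and 0.01796 FPKM in DBA (37.9-fold, adjusted p = 3.89e-09). Its naive mean was also higher in CAST, at 0.0497 against 0.00694 FPKM in DBA, without a call (adjusted p = 0.529). The log2(FPKM + 1) scale compresses values this low, so the missing call does not show that the naive strains were equal. The groups of both genes were clear of each other in every injured library.

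Ifi213 and Ifi202b belong to a cluster of interferon-induced DNA-binding proteins on chromosome 1 and went opposite ways. Ifi213 was at 0.189, 0.157, 0.0807 and 0.09597 FPKM in CAST and 0.00111, 0.000365, 0.00129 and 0.000238 FPKM in DBA (adjusted p = 1.5e-07), where the DBA mean stands for 2.603 estimated reads in a library, so no ratio is given. Ifi202b was at 1.26, 1.05, 1.68 and 1.26 FPKM in DBA and 0.0738, 0.0683, 0.0344 and 0.0529 FPKM in CAST, 22.9-fold higher in DBA (adjusted p = 6.73e-14). For Ifi202b the interaction was -0.995 (adjusted p = 8.85e-10). Reads of such near-identical family members may be divided between genes by the counting, and its rules are unknown here.

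The size of the interferon difference varied among CAST libraries. The mean log2(FPKM + 1) of the list was 1.66 and 1.71 in CAST replicates 1 and 2 and 1.18 and 1.29 in replicates 3 and 4, against 0.597 and 0.591 in DBA replicates 1 and 2 and 0.739 and 0.565 in DBA replicates 3 and 4. CAST was above DBA at each replicate number. Without DBA replicate 3, the highest DBA library, 35 of the 35 members were called higher in CAST. Adipocyte genes were higher in the same 2 CAST libraries. Their summed level was 8.22, 10.9, 2.92 and 3.82 FPKM in CAST replicates 1 to 4 and 3.81, 4.49, 3.27 and 3.18 in DBA. The split in CAST was not particular to adipocyte genes. Erythrocyte genes were at 537, 479, 274 and 358 FPKM in CAST replicates 1 to 4, and gp130 cytokine signalling at 47.2, 46.8, 40.0 and 40.6. The part of these lists in the interferon result was not tested. Macrophage genes did not follow this split, with 56.5, 42.8, 62.4 and 53.7 FPKM in CAST and 56.7, 45.9, 55.3 and 48.3 in DBA.

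Genes of MHC class I presentation, which display peptides from inside the cell to T cells, were higher in injured CAST as well. Of 20 tested, 16 were called higher in CAST and 0 higher in DBA, against 26.4% and 21.4% of all genes, with a median ratio of 1.67. In naive ganglia 1 was higher in CAST and 3 were higher in DBA. The interaction was called for 12, each with a higher CAST minus DBA difference after crush. B2m, the light chain of class I molecules, was at 62.8, 51.7, 60.2 and 53.7 FPKM in CAST and 21.98, 20.7, 32.9 and 21.9 FPKM in DBA. No DBA library reached the lowest CAST library, although DBA replicate 3 came nearest, and the ratio was 2.34-fold (log2 difference 1.22, SE 0.11, adjusted p = 2.68e-08). Naive means of B2m were 10.3 and 11.9 FPKM in CAST and DBA (adjusted p = 0.183).

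The non-classical class I genes H2-T23 and H2-T24 were 3.33-fold and 2.88-fold higher in CAST (adjusted p = 1.14e-08 and 0.000556), and H2-Q7 was 2.501-fold higher (adjusted p = 8.03e-09). These genes vary strongly in sequence between mouse strains and resemble one another, so reads of CAST or DBA may be placed unequally on the reference, which was not tested. B2m overlaps Patl2, and H2-T23 and H2-T24 overlap a noncoding gene, and with no statement on strand their reads cannot be told apart. Without DBA replicate 3, 18 of the 20 were called.

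Guanylate-binding and immunity-related GTPases, which attack vacuoles of pathogens and respond mainly to interferon gamma, gave mixed calls. Of 15 tested, 5 (33.3%) were higher in CAST and 1 (6.67%) was higher in DBA, against 26.4% and 21.4% of all genes. Without DBA replicate 3 these counts were 11 and 0. Leaving out CAST replicate 1 or 2 or DBA replicate 1, 2 or 4 left 3 higher in CAST, and fitting only the injured CAST and DBA libraries left 3 and 0. Gbp3 was at 1.04, 1.19, 0.645 and 0.711 FPKM in CAST and 0.199, 0.157, 0.4605 and 0.169 FPKM in DBA, 3.64-fold higher in CAST (adjusted p = 2.22e-06). DBA replicate 3 was the highest DBA library and remained below each CAST library. Gbp8 and Gbp9, which overlap each other in the annotation, were 3.26-fold and 3.004-fold higher in CAST (adjusted p = 7.37e-05 and 0.000214). Iigp1 went the other way, at 0.0989, 0.0987, 0.603 and 0.0908 FPKM in DBA and 0.00351, 0.00288, 0.00158 and 0.00104 FPKM in CAST (adjusted p = 0.0234). Most of its DBA mean came from replicate 3, and without that library the call was lost (log2 difference -0.13, adjusted p = 0.0861), as it was when only the injured CAST and DBA libraries were fitted (adjusted p = 0.119). In naive ganglia, Iigp1 stood at 0.000579, 0.00132, 0.0005998 and 0.00144 FPKM in CAST and 0.0696, 0.0897, 0.0817 and 0.0717 in DBA, with no overlap and no call (adjusted p = 0.384), and the log2(FPKM + 1) scale compresses values this low.

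**Figure D3:**
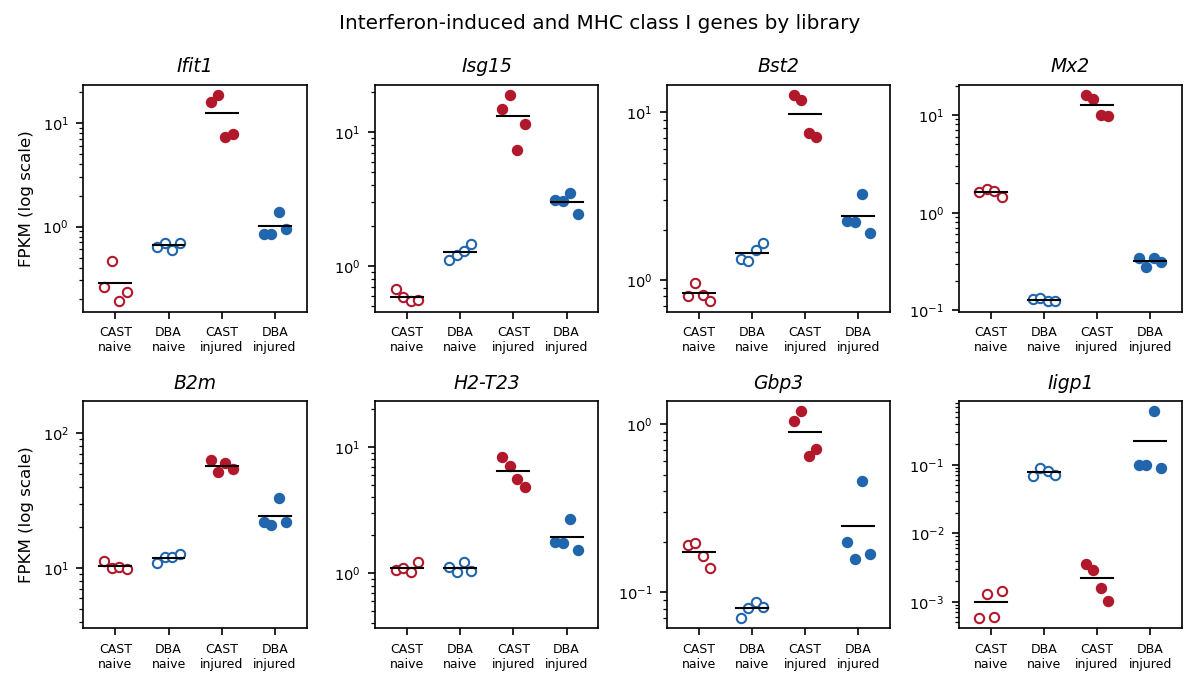
FPKM on a log axis of 8 genes in each library, with open circles for naive and filled circles for injured ganglia, red for CAST and blue for DBA, and a black line at the group mean. Injured CAST libraries lie above injured DBA libraries for all but Iigp1, and the third injured DBA library is the highest of its group for Ifit1, Isg15, Bst2, B2m, H2-T23, Gbp3 and Iigp1.

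MHC class II presentation, a function of macrophages, dendritic cells and B cells, went both ways. Of 11 genes, 2 (18.2%) were higher in CAST and 3 (27.3%) higher in DBA in injured ganglia, against 26.4% and 21.4% of all genes. Only 1 was higher in CAST without CAST replicate 1, with upper-quartile scaling or on log2(CPM + 0.5), and 0 when only the injured CAST and DBA libraries were fitted. In naive ganglia 7 were higher in DBA, against 20.4% of all genes. The interaction was called for 6, each with a higher CAST minus DBA difference after crush, against 7.99% of all genes. Ciita, the regulator of class II genes, was 1.69-fold higher in DBA (adjusted p = 0.000314), at 0.153, 0.134, 0.194 and 0.1399 FPKM in DBA and 0.0815, 0.0958, 0.104 and 0.0855 FPKM in CAST, with no overlap. H2-DMb1, which loads peptides on class II molecules, was 1.43-fold higher in CAST (adjusted p = 0.00391), with overlapping libraries at 0.892, 0.573, 1.05 and 0.8195 FPKM in CAST and 0.594, 0.497, 0.677 and 0.565 FPKM in DBA, and lost its call when only the injured CAST and DBA libraries were fitted (adjusted p = 0.0695). H2-Eb2 was 2.63-fold higher in DBA (adjusted p = 0.00617) at no more than 0.0154 FPKM in a library.

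Macrophage genes went both ways. Of 20, 8 (40%) were higher in CAST and 6 (30%) higher in DBA, against 26.4% and 21.4% of all genes. The median ratio was 1.06, and the counts were 6 and 9 with upper-quartile scaling. Mpeg1, which encodes the pore-forming perforin-2 of macrophages, was at 15.99, 12.5, 16.04 and 12.1 FPKM in CAST and 7.02, 5.51, 8.28 and 5.56 FPKM in DBA (2.15-fold higher in CAST, adjusted p = 7.01e-07), and its naive means were 1.15 and 1.08 FPKM in CAST and DBA (adjusted p = 0.713). Ms4a7, a membrane protein of macrophages, was at 0.155, 0.117, 0.127 and 0.123 FPKM in DBA and 0.0186, 0.0153, 0.0293 and 0.0224 FPKM in CAST (6.096-fold, adjusted p = 3.35e-12), and the scavenger receptors Cd163 and Mrc1 were 2.23-fold and 2.11-fold higher in DBA (adjusted p = 0.000134 and 1.75e-08), each without overlap between the groups. The interaction was called for Mpeg1, Ms4a7 and Mrc1 (adjusted p = 0.000482, 3.28e-08 and 2.62e-05).

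Chemokines also went both ways, with 10 of 27 chemokine and cytokine genes higher in CAST and 10 higher in DBA. Each count is 37.0% of the list, against 26.4% and 21.4% of all genes. Ccl8, which attracts monocytes, was at 7.36, 5.601, 8.197 and 6.198 FPKM in DBA and 0.811, 0.685, 0.848 and 0.787 FPKM in CAST. Every DBA library was several times above every CAST library, and the ratio was 8.74-fold (log2 difference -2.13, SE 0.074, adjusted p = 6.62e-15). Naive means of Ccl8 were 0.135 and 0.132 FPKM in CAST and DBA (adjusted p = 0.97), so the interaction of -2.13 (adjusted p = 1.73e-11) equals the difference after crush. Cxcl13, which attracts B cells, was 13.7-fold higher in CAST, at 0.457, 0.2501, 0.3897 and 0.759 FPKM in CAST and 0.0171, 0.0385, 0.0384 and 0.0419 FPKM in DBA (adjusted p = 6.28e-07).

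Cxcl9, which interferon gamma induces, was 3.04-fold higher in CAST (adjusted p = 0.00611) but overlapped, at 0.765, 0.766, 0.4704 and 0.347 FPKM in CAST and 0.0808, 0.0617, 0.605 and 0.0257 FPKM in DBA. The overlap came from DBA replicate 3 alone, and the call was lost when only the injured CAST and DBA libraries were fitted (adjusted p = 0.0675). Ccl6 was 3.07-fold higher in DBA (adjusted p = 1.06e-05).

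Lymphocyte genes were low, and neutrophil genes varied between libraries. Of 18 lymphocyte genes, 4 (22.2%) were higher in CAST and 2 (11.1%) higher in DBA, both below the 26.4% and 21.4% of all genes. At least 2-fold were 3 of those higher in CAST and 2 of those higher in DBA. Without CAST replicate 4, 7 were higher in CAST. Only 1 was higher in DBA without DBA replicate 1 or 3 or when only the injured CAST and DBA libraries were fitted. The summed level of the list was 0.825 to 1.23 FPKM in CAST and 0.806 to 1.196 in DBA. Gzmb, the granzyme of cytotoxic cells, was at 0.0948, 0.101, 0.113 and 0.0707 FPKM in CAST and 0.0178, 0.0312, 0.0385 and 0.0255 FPKM in DBA (3.35-fold higher in CAST, adjusted p = 6.65e-08), and Cd8a, which marks cytotoxic T cells, was 2.73-fold higher (adjusted p = 1.12e-05). Both had all CAST libraries above all DBA libraries. Of 12 neutrophil genes, 1 (8.33%) was higher in CAST and 2 (16.7%) were higher in DBA, also below the shares of all genes. These 2 became 6 without CAST replicate 1, 7 without DBA replicate 2 and 1 without CAST replicate 2, 3 or 4 or DBA replicate 1 or 3 or when only the injured CAST and DBA libraries were fitted. Their summed level spread widely, over 6.62 to 15.6 FPKM for CAST and 7.203 to 28.4 FPKM for DBA.

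Among 18 complement genes, 7 (38.9%) were higher in CAST and 6 (33.3%) higher in DBA, against 26.4% and 21.4% of all genes. Inhibitors of complement on the cell surface differed in both directions. Cd59a, which blocks the membrane attack complex, was at 2.35, 2.26, 2.37 and 2.303 FPKM in DBA and 0.6704, 0.663, 0.607 and 0.613 FPKM in CAST (3.64-fold higher in DBA, adjusted p = 1.06e-15). Cd55, which speeds decay of the convertase, was at 5.896, 5.52, 4.37 and 5.76 FPKM in CAST and 1.84, 2.09, 1.97 and 1.77 FPKM in DBA (2.81-fold higher in CAST, adjusted p = 8.46e-11). Both were called in the same direction in naive ganglia (3.19-fold and 2.19-fold). Cfb, a component of the alternative pathway, was 2.67-fold higher in injured CAST (adjusted p = 2.47e-08), with naive means of 0.163 and 0.145 FPKM (adjusted p = 0.655).

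Mast cell genes were far lower in CAST than in DBA ganglia. Of 9 mast cell genes tested, 7 were called higher in DBA, each at least 2-fold, and 0 higher in CAST, against 5.41% of all genes at least 2-fold higher in DBA. In naive ganglia 7 of 9 were called higher in DBA, and the interaction was called for 4, each with a wider gap after crush. The exceptions were Kit, the receptor for stem cell factor, at 0.305, 0.305, 0.347 and 0.323 FPKM in DBA and 0.337, 0.287, 0.233 and 0.284 FPKM in CAST (adjusted p = 0.143, or 0.0278 without CAST replicate 1 and 0.0188 with upper-quartile scaling), and Ms4a2, at 0.0122, 0.00805, 0.0135 and 0.0118 FPKM in DBA and 0.0136, 0.00783, 0.00528 and 0.00364 FPKM in CAST (adjusted p = 0.267).

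Cma1, the mast cell chymase, was at 1.62, 1.58, 1.15 and 1.502 FPKM in DBA and 0.0251, 0.0248, 0.0326 and 0.0236 FPKM in CAST. The lowest DBA library lay far above the highest CAST library, and the ratio was 55.2-fold (log2 difference -1.26, SE 0.10, adjusted p = 1.21e-09). Naive means were 0.0426 and 0.631 FPKM in CAST and DBA (adjusted p = 2.02e-05). The tryptase Tpsb2 was at 2.36, 2.35, 1.68 and 2.29 FPKM in DBA and 0.116, 0.134, 0.0508 and 0.111 FPKM in CAST (21.1-fold, adjusted p = 2.13e-08), and the chymase Mcpt4 was 52.1-fold higher in DBA (adjusted p = 1.39e-07). Mcpt2, a protease of mucosal mast cells from the same cluster on chromosome 14 and outside the list, was at 3.21, 2.56, 2.15 and 3.37 FPKM in DBA and at 0, 0.00634, 0.00347 and 0.00821 in CAST (adjusted p = 2.05e-12), with at most a few reads in a CAST library. Genes of this cluster resemble one another and their reads may be shared.

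Other granule and receptor genes differed in the same direction. Fcer1a, the receptor chain for immunoglobulin E, was 11.2-fold higher in DBA, at 0.0949, 0.0357, 0.09898 and 0.0727 FPKM in DBA and 0.00602, 0.00535, 0.00878 and 0.00692 FPKM in CAST (adjusted p = 4.69e-05), and Cpa3, a carboxypeptidase of mast cell granules chosen after its values were seen, was 8.97-fold higher (adjusted p = 2.37e-07). The summed level of the list was 0.387 to 0.607 FPKM in injured CAST and 4.67 to 6.51 in injured DBA, and 0.515 to 0.727 and 2.14 to 4.81 in naive CAST and DBA ganglia.

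Genes of nociceptors, the neurons that sense harmful stimuli and itch, were higher in injured CAST. Of 25 tested, 17 were called higher in CAST and 1 higher in DBA, against 26.4% and 21.4% of all genes, with a median ratio of 1.49. Naive ganglia had 13 higher in CAST and 3 higher in DBA. The interaction was called for 6 with a higher and 2 with a lower CAST minus DBA difference after crush. General neuron and sensory identity genes had a median ratio of 1.11, with 8 of 19 higher in CAST and 3 higher in DBA, which turned to 4 and 6 with upper-quartile scaling. The 17 nociceptor calls higher in CAST stood at 16 with that scaling, and the 1 higher in DBA at 2.

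Mrgprb4, a Mas-related receptor of neurons that respond to stroking of the skin, was at 26.4, 19.6, 16.3 and 26.2 FPKM in CAST and 0.889, 1.62, 1.25 and 1.06 FPKM in DBA. The groups were far apart, and the ratio was 18.3-fold (log2 difference 3.37, SE 0.14, adjusted p = 5.38e-14). In naive ganglia it was 10.9-fold higher in CAST, with means of 59.1 and 5.399 FPKM, and the interaction did not pass the test (adjusted p = 0.72). Mrgprb5, of the same family, was at 14.3, 9.92, 8.696 and 13.7 FPKM in CAST and 0.901, 1.29, 1.07 and 0.924 FPKM in DBA (11.2-fold, adjusted p = 1.04e-11). The sequences of the Mas-related genes resemble each other, and reads may be shared between them. Nppb, the natriuretic peptide that signals itch, was at 8.201, 7.38, 7.56 and 7.64 FPKM in CAST and 1.34, 2.14, 1.25 and 1.67 FPKM in DBA (4.81-fold, adjusted p = 1.34e-11), and Trpa1, the channel for irritants, was at 1.19, 1.21, 1.03 and 1.15 FPKM in CAST and 0.305, 0.329, 0.308 and 0.314 FPKM in DBA (3.65-fold, adjusted p = 1.62e-12).

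A receptor and a channel of nociceptors differed as well. Gfra3, the receptor for artemin, was at 7.02, 7.15, 7.35 and 7.39 FPKM in CAST and 2.96, 2.81, 2.81 and 2.82 FPKM in DBA, which is 2.53-fold in injured (adjusted p = 4.26e-16) and 2.22-fold in naive ganglia, and an interaction of 0.35 (adjusted p = 1.07e-05). The sodium channel Scn10a was 1.84-fold higher in CAST (adjusted p = 2.27e-05), at 5.96, 6.502, 3.76 and 5.196 FPKM in CAST and 2.81, 3.31, 2.73 and 2.79 FPKM in DBA. Both genes had every CAST library above every DBA library. Sst, the peptide somatostatin of itch neurons, was 1.95-fold higher in injured CAST with overlapping libraries (adjusted p = 0.00218), and 3.58-fold higher in naive CAST (adjusted p = 8.92e-08).

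The member called higher in DBA was Trpv1, the receptor for heat and capsaicin, which was 1.19-fold higher in DBA (adjusted p = 0.00482) with overlapping libraries, at 1.195, 1.17, 1.18 and 1.29 FPKM in DBA and 1.01, 1.18, 0.918 and 0.937 FPKM in CAST. Prdm12, a regulator of nociceptor development, was 1.53-fold higher in CAST (adjusted p = 5.85e-06), and Nefh, the heavy neurofilament of large myelinated neurons, was 1.35-fold higher in DBA (adjusted p = 1.83e-05), at 180.1, 188, 193 and 209 FPKM in DBA and 142, 134, 145 and 151 FPKM in CAST. Of 16 genes of mechanoreceptors and proprioceptors, 3 (18.75%) were higher in CAST and 5 (31.25%) higher in DBA, against 26.4% and 21.4% of all genes. The counts were 1 and 6 with upper-quartile scaling, and 5 were higher in CAST with a pseudocount of 0.1, on log2(CPM + 0.5) and with voom. Among those higher in DBA was Pvalb, the calcium buffer of proprioceptors (1.57-fold higher in DBA, adjusted p = 0.000334).

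Channels outside the nociceptor list gave 5 of 25 genes (20%) higher in CAST and 4 (16%) higher in DBA, both below the 26.4% and 21.4% of all genes. The counts were 4 and 8 with upper-quartile scaling, with 7 higher in DBA on log2(CPM + 0.5). Kcnk18, the potassium channel TRESK, was 2.16-fold higher in CAST (adjusted p = 1.19e-06), and Ano1, a chloride channel activated by calcium, was 2.27-fold higher in DBA (adjusted p = 1.19e-12). Ano1 had naive means of 0.0236 and 0.0229 FPKM in CAST and DBA (adjusted p = 0.721), with an interaction of -0.039 (adjusted p = 1.56e-09).

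Chrna3 and Chrnb4, which encode subunits of one nicotinic acetylcholine receptor and lie side by side on chromosome 9, were chosen after their values were seen. Chrna3 was at 4.04, 4.25, 3.26 and 4.07 FPKM in CAST and 0.153, 0.168, 0.169 and 0.215 FPKM in DBA (22.1-fold, adjusted p = 2.49e-14), and Chrnb4 was at 1.01, 1.17, 0.708 and 0.993 FPKM in CAST and 0.0515, 0.0656, 0.0533 and 0.0434 FPKM in DBA (18.2-fold, adjusted p = 5.99e-11). In naive ganglia they were 11.7-fold and 5.57-fold higher in CAST, and neither interaction passed the test (adjusted p = 0.347 and 0.222).

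**Figure D4:**
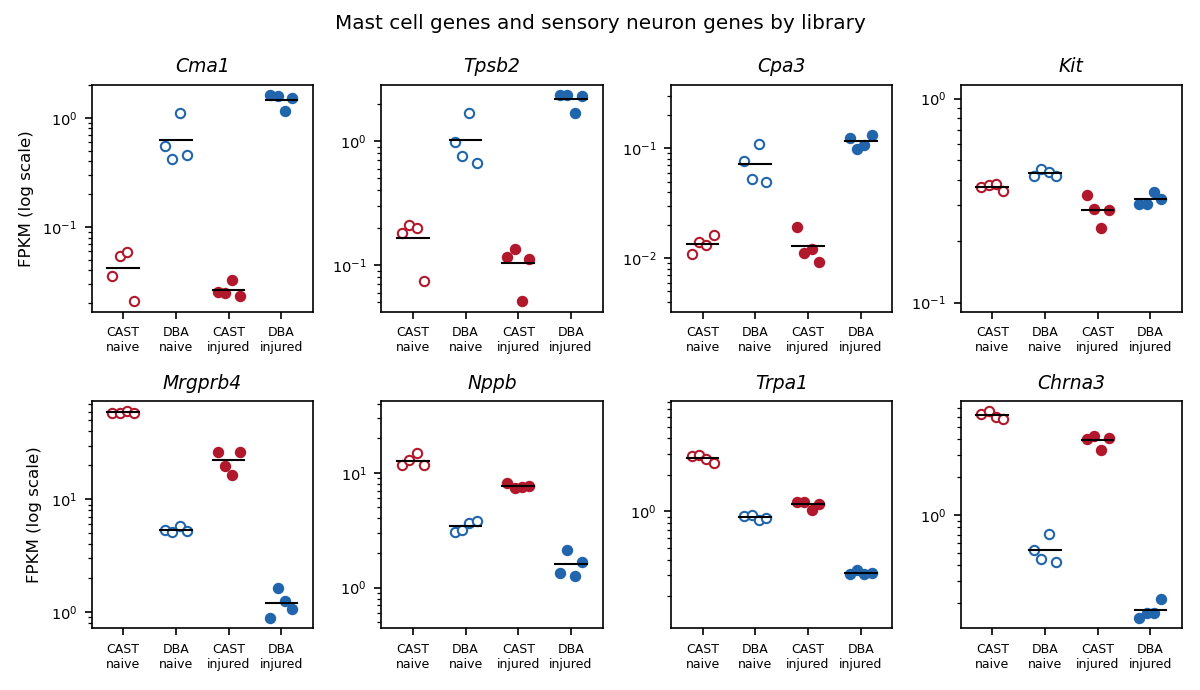
FPKM on a log axis of 4 mast cell genes (top) and 4 sensory neuron genes (bottom) in each library, with open circles for naive and filled circles for injured ganglia, red for CAST and blue for DBA, and a black line at the group mean. Cma1, Tpsb2 and Cpa3 are higher in every DBA library and Kit is not separated after crush, and all 4 sensory neuron genes are higher in every CAST library, before and after crush.

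Atf3, Gal and Gap43, classical genes of the neuronal injury response, were not called between the strains. Atf3, the transcription factor that marks axotomized neurons, was at 17.5, 16.7, 20.3 and 17.4 FPKM in CAST and 19.8, 17.7, 18.4 and 17.9 FPKM in DBA (log2 difference -0.039, SE 0.066, adjusted p = 0.666), with overlapping libraries. Its naive means were 0.367 and 0.2999 FPKM. Gal, the neuropeptide galanin, was at 266, 298, 327 and 252 FPKM in CAST and 347, 345, 323 and 346 FPKM in DBA (adjusted p = 0.165), and Gap43, a growth cone protein, was at 5.305, 5.22, 6.28 and 5.85 FPKM in CAST and 6.02, 5.67, 6.06 and 6.202 FPKM in DBA (adjusted p = 0.225). These 3 genes did not pass the test, which does not show that they are equal. Gal passed when only the injured CAST and DBA libraries were fitted (adjusted p = 0.0382), and Gap43 passed with upper-quartile scaling and without CAST replicate 3 (adjusted p = 0.0323 and 0.0401), both lower in CAST. Their ratios of DBA to CAST, 1.03, 1.19 and 1.06, stood beside a response to the crush of Atf3 that was 61.5-fold for DBA and 48.96-fold for CAST.

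Sprr1a, an injury-induced protein of regrowing neurons, was at 541, 546, 538 and 559 FPKM in DBA and 362, 398, 470.0 and 400.4 FPKM in CAST. Every DBA library was above every CAST library, but the difference of 1.34-fold narrowly missed the threshold (adjusted p = 0.0509). It passed without CAST replicate 3 (adjusted p = 0.0377), with upper-quartile scaling (adjusted p = 0.0232), with voom (adjusted p = 0.0175) and when only the injured CAST and DBA libraries were fitted (adjusted p = 0.00304). In naive ganglia Sprr1a was 4.38-fold higher in CAST (adjusted p = 3.08e-05), and the interaction was -1.52 (adjusted p = 0.00016).

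Of 30 growth-associated genes, 5 were called higher in CAST and 13 higher in DBA, against 26.4% and 21.4% of all genes, and 3 and 19 with upper-quartile scaling. The 5 higher in CAST became 3 without CAST replicate 1 or 4 or DBA replicate 2 or 4. Naive ganglia had 9 higher in CAST and 4 higher in DBA. The interaction was called for 9 with a lower and 3 with a higher CAST minus DBA difference after crush. Tuba1a, an alpha-tubulin of growing neurons, was at 583, 589, 539 and 579 FPKM in DBA and 334, 328, 352 and 352 FPKM in CAST (1.68-fold, adjusted p = 1.5e-08), and Tubb2a, a beta-tubulin, was 1.25-fold higher in DBA (adjusted p = 0.00197), both with no overlap. Tubulin genes share sequence, and reads may be divided between them.

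Gpr151, an orphan receptor of injured sensory neurons, was at 57.5, 54.5, 50.5 and 56.8 FPKM in DBA and 25.98, 27.7, 27.98 and 22.4 FPKM in CAST (2.11-fold, adjusted p = 3.1e-08). In naive ganglia the order was reversed, 2.49-fold higher in CAST (adjusted p = 2.97e-06), so the interaction of -1.81 was larger than either difference (adjusted p = 1.37e-08). Plaur, the urokinase receptor, was 1.67-fold higher in CAST, at 2.71, 2.72, 2.95 and 2.61 FPKM in CAST and 1.78, 1.498, 1.67 and 1.62 FPKM in DBA (adjusted p = 4.72e-09). Thy1, a surface glycoprotein of neurons that also marks fibroblasts, was at 161, 167, 144 and 162 FPKM in DBA and 69.3, 65.05, 61.6 and 71.9 FPKM in CAST (2.37-fold, adjusted p = 4.03e-12), with naive means of 113 and 117 FPKM in CAST and DBA (adjusted p = 0.603).

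Injury-induced transcription factors gave 8 of 23 genes (34.8%) higher in CAST and 5 (21.7%) higher in DBA, against 26.4% and 21.4% of all genes. The counts were 2 and 9 with upper-quartile scaling, so no direction holds for the list. Without DBA replicate 2 or 4, 4 and 5 were higher in CAST, and 4 when only the injured CAST and DBA libraries were fitted. Nfil3, a repressor induced by axotomy, was 1.46-fold higher in CAST (adjusted p = 2.97e-06). Fos, an AP-1 factor that also responds to handling of tissue, was at 4.3, 3.38, 3.81 and 3.99 FPKM in DBA and 1.35, 1.15, 1.36 and 1.38 FPKM in CAST (2.95-fold, adjusted p = 4.75e-10), and Cebpd was 1.66-fold higher in DBA (adjusted p = 5.49e-05). Of the 16 handling-stress genes, which mark RNA changes during dissection and include Fos, 5 (31.25%) were higher in DBA and 0 higher in CAST, against 21.4% and 26.4% of all genes. Without DBA replicate 1, 3 were higher in DBA. Without CAST replicate 4, 2 were higher in CAST, or 1 when only the injured CAST and DBA libraries were fitted. The part of the handling-stress genes in the difference of Fos was not tested.

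Injury-induced neuropeptides and their receptors were mixed, with 5 of 18 higher in CAST and 7 higher in DBA. These are 27.8% and 38.9%, against 26.4% and 21.4% of all genes. Crh, corticotropin-releasing hormone, was at 7.86, 7.98, 8.902 and 7.98 FPKM in DBA and 2.22, 2.11, 2.92 and 2.26 FPKM in CAST. All DBA libraries were far above the CAST libraries, and the ratio was 3.44-fold (log2 difference -1.45, SE 0.07, adjusted p = 1.15e-12). It was near 0 in naive ganglia of both strains, with means of 0.0275 and 0.0448 FPKM, and the interaction was -1.42 (adjusted p = 2.53e-09). Cckbr, the receptor for gastrin and cholecystokinin, was 2.12-fold higher in DBA, at 1.13, 0.982, 1.03 and 1.02 FPKM in DBA and 0.4496, 0.413, 0.571 and 0.531 FPKM in CAST (adjusted p = 3.08e-11), and Vip, vasoactive intestinal peptide, was higher in DBA (adjusted p = 3.94e-05) at means of only 23 estimated reads in DBA and 2.75 in CAST.

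Activin signalling was looked at because Inhba, the gene of the activin A subunit, has been studied in this strain, so its place here is no independent evidence. Inhba was at 0.134, 0.12, 0.121 and 0.142 FPKM in CAST and 0.0148, 0.0183, 0.02001 and 0.0204 FPKM in DBA. Each CAST library was several times above each DBA library, and the ratio was 7.04-fold (log2 difference 0.15, SE 0.0046, adjusted p = 1.06e-15), where log2(FPKM + 1) compresses FPKM this low. Naive means were 0.00981 and 0.00924 FPKM in CAST and DBA (adjusted p = 0.91), and the interaction was 0.15 (adjusted p = 3.2e-12).

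Fst, the antagonist follistatin that binds activin, went the other way, at 10.4, 8.89, 9.58 and 9.98 FPKM in DBA and 4.23, 4.44, 4.92 and 4.06 FPKM in CAST (2.199-fold, adjusted p = 3.07e-09), although naive CAST was 1.83-fold higher (adjusted p = 0.011). Acvr1c, a type I receptor of this family also named Alk7, was 3.91-fold higher in DBA (adjusted p = 8.52e-12), and Inha, the inhibin alpha subunit that turns the beta subunits into an activin antagonist, was 1.93-fold higher in DBA (adjusted p = 2.09e-07). Over the whole list of activin, BMP and TGF-beta signalling, 8 of 30 genes (26.7%) were higher in CAST and 8 (26.7%) higher in DBA. The list is thus near the 26.4% and 21.4% of all genes.

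**Figure D5:**
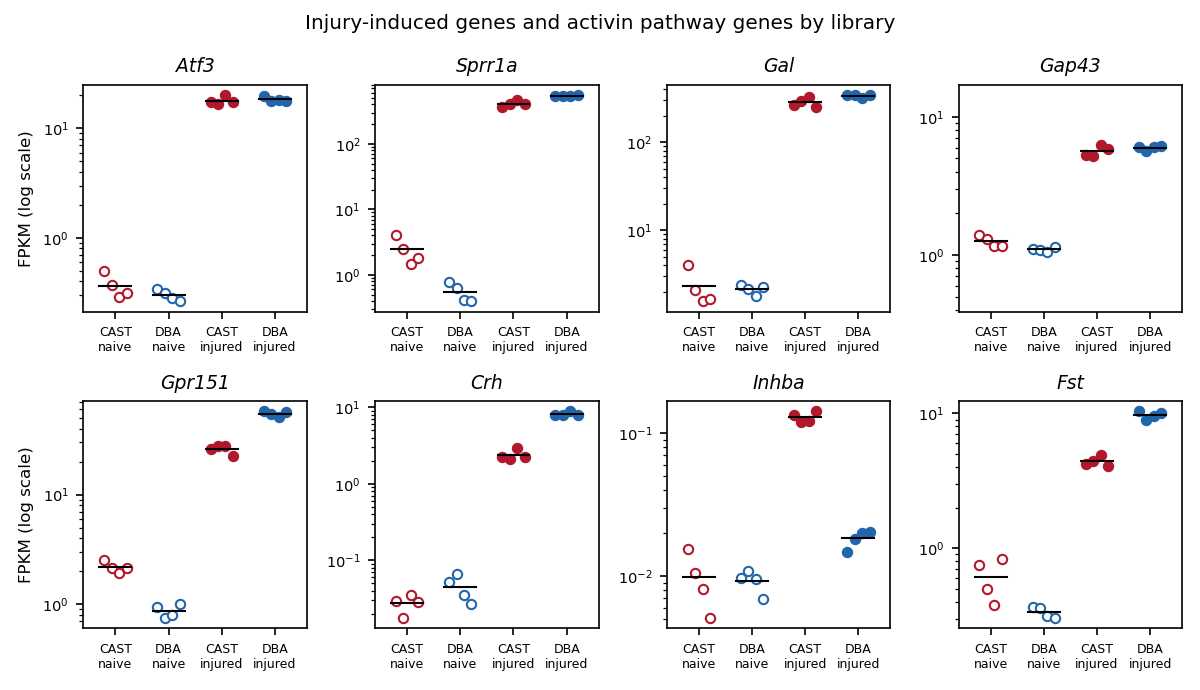
FPKM on a log axis of 8 injury-induced and activin pathway genes in each library, with open circles for naive and filled circles for injured ganglia, red for CAST and blue for DBA, and a black line at the group mean. Injured libraries of the strains overlap for Atf3, Gal and Gap43, DBA is higher for Sprr1a, Gpr151, Crh and Fst, and CAST is higher for Inhba.

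Signalling through gp130, the shared receptor of interleukin 6 family cytokines, had 7 of 18 genes higher in CAST and 6 higher in DBA. These are 38.9% and 33.3%, against 26.4% and 21.4% of all genes. The ligand Il11 was 2.33-fold higher in DBA (adjusted p = 3.15e-07). The feedback inhibitors split, with Socs3 at 9.82, 9.05, 9.31 and 10.02 FPKM in DBA and 6.096, 6.04, 5.75 and 4.73 FPKM in CAST (1.69-fold higher in DBA, adjusted p = 4e-05) and Socs2 at 0.901, 0.907, 1.01 and 0.8294 FPKM in CAST and 0.431, 0.384, 0.499 and 0.426 FPKM in DBA (2.097-fold higher in CAST, adjusted p = 6.76e-10). Socs2 was also 2.703-fold higher in naive CAST, whereas naive means of Socs3 were 1.72 and 1.92 FPKM (adjusted p = 0.412). Of 25 neurotrophic factors and receptors, 5 (20%) were higher in CAST and 8 (32%) higher in DBA, against 26.4% and 21.4% of all genes. Gdnf, the glial-derived factor, was 2.07-fold higher in DBA (adjusted p = 4.5e-06). It was at 0.156, 0.153, 0.136 and 0.109 FPKM in DBA and 0.0442, 0.0456, 0.0775 and 0.1004 FPKM in CAST.

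Most genes of satellite glia and of myelinating Schwann cells were lower in CAST than in DBA. Of 12 satellite glia genes, 9 were higher in DBA and 1, the connexin gene Gja1, was higher in CAST (1.16-fold, adjusted p = 0.0133), a call that was lost with upper-quartile scaling, when only the injured CAST and DBA libraries were fitted, and without CAST replicate 3 (adjusted p = 0.169, 0.119 and 0.0641). Of 17 genes of myelinating Schwann cells, 13 were higher in DBA and 1 was higher in CAST. These compare with 21.4% and 26.4% of all genes, and the median ratios of CAST to DBA were 0.7402 and 0.772. In naive ganglia, 5 and 12 of the members were already higher in DBA.

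Fabp7, a lipid carrier of satellite glia, was at 31.7, 32.2, 23.3 and 31.4 FPKM in DBA and 4.34, 3.96, 8.58 and 6.702 FPKM in CAST (5.03-fold, log2 difference -2.19, SE 0.22, adjusted p = 4.69e-08). The groups were far apart, although DBA replicate 3 was the lowest DBA library, and the difference was larger than the 2.25-fold of naive ganglia (interaction -1.001, adjusted p = 0.0295). Sparcl1, a matrix protein of glia and vessels, was 1.89-fold higher in DBA (adjusted p = 4.94e-12). The myelin genes Pmp22 and Mbp were 1.61-fold and 1.62-fold higher in DBA (adjusted p = 3.6e-08 and 1.18e-06), with nearly the same ratios in naive ganglia of 1.65-fold and 1.72-fold. Pmp22, a membrane protein of peripheral myelin, was at 13.8, 14.5, 13.3 and 13.4 FPKM in DBA and 9.299, 8.82, 7.896 and 8.18 FPKM in CAST.

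Of 14 genes of reactive and repair glia, 3 were higher in CAST and 6 higher in DBA, and the interaction was called for 7, each with a lower CAST minus DBA difference after crush. These compare with 26.4%, 21.4% and 7.46% of all genes. With upper-quartile scaling 1 was higher in CAST and 7 were higher in DBA, and 1 was higher in CAST when only the injured CAST and DBA libraries were fitted. Vim, the intermediate filament vimentin, was at 66.5, 64.7, 65.9 and 65.8 FPKM in DBA and 31.4, 30.7, 32.7 and 33.5 FPKM in CAST (2.05-fold, adjusted p = 5.39e-11). Olig1, a factor of glial lineage, was at 0.335, 0.271, 0.137 and 0.184 FPKM in CAST and 0.0558, 0.0408, 0.0388 and 0.01597 FPKM in DBA (6.12-fold higher in CAST, adjusted p = 0.000194) and was 7.63-fold higher in naive CAST. Marker genes of central glia, which a ganglion should lack, were low, with a summed level of 0.981 to 1.23 FPKM in CAST and 1.33 to 1.78 in DBA. Of these, 4 of 8 (50%) were higher in DBA and 1 (12.5%) was at least 2-fold higher in CAST, against 21.4% and 26.4% of all genes called in these directions. Without DBA replicate 2, 2 were higher in DBA, and with voom 3 were higher in CAST. Among those higher in DBA was Aldh1l1 (3.54-fold, adjusted p = 1.7e-14), a folate enzyme of astrocytes.

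Of 14 fibroblast genes 7 were higher in DBA and 1 was higher in CAST, and of 27 genes of extracellular matrix and proteases 14 (51.9%) were higher in DBA and 6 (22.2%) higher in CAST. These compare with 21.4% of all genes higher in DBA and 26.4% higher in CAST. Postn, the matrix protein periostin, was at 0.467, 0.404, 0.503 and 0.429 FPKM in DBA and 0.121, 0.129, 0.164 and 0.172 FPKM in CAST (3.08-fold, adjusted p = 2.67e-12). Tnc, tenascin-C, was at 0.218, 0.196, 0.187 and 0.166 FPKM in DBA and 0.0457, 0.0588, 0.0521 and 0.0477 FPKM in CAST (3.76-fold, adjusted p = 3.93e-13), and the chondroitin sulfate proteoglycan Cspg5 was 5.005-fold higher in DBA (adjusted p = 1.26e-14). Thbs4, thrombospondin 4, was the reverse, at 0.559, 0.572, 0.352 and 0.419 FPKM in CAST and 0.129, 0.112, 0.101 and 0.109 FPKM in DBA (4.21-fold higher in CAST, adjusted p = 2.15e-08). The interaction was called for Postn and Tnc (adjusted p = 3.8e-07 and 5.26e-09).

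Among 22 axon guidance genes, 4 (18.2%) were higher in CAST and 11 (50%) higher in DBA. Among 20 inhibitors of regeneration and their receptors, 3 (15%) were higher in CAST and 8 (40%) higher in DBA. These compare with 26.4% and 21.4% of all genes. The 3 regeneration genes became 1 without CAST replicate 2, with upper-quartile scaling or when only the injured CAST and DBA libraries were fitted. Sema5a, a transmembrane semaphorin, was 1.897-fold higher in DBA, at 0.201, 0.196, 0.211 and 0.219 FPKM in DBA and 0.122, 0.126, 0.0907 and 0.0974 FPKM in CAST (adjusted p = 3.08e-07), and the semaphorin receptor Nrp2 was 1.71-fold higher (adjusted p = 2.23e-10). No list member of either group reached a called 2-fold difference.

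Genes of cholesterol synthesis, which glia use to make myelin, were mostly lower in CAST. Of 23 genes, 19 were higher in DBA and 2, Lss and Fdft1, were higher in CAST, against 21.4% and 26.4% of all genes, with a median ratio of CAST to DBA of 0.755. In naive ganglia 13 were higher in DBA and 2 in CAST. Pmvk, phosphomevalonate kinase, was at 1.79, 1.997, 1.53 and 1.72 FPKM in DBA and 0.747, 0.733, 0.5902 and 0.671 FPKM in CAST (2.57-fold, adjusted p = 3.09e-09), and Idi1, an isomerase of the same pathway, was 1.65-fold higher in DBA (adjusted p = 9.26e-08). Lss, lanosterol synthase, was at 1.84, 1.85, 1.67 and 1.83 FPKM in CAST and 0.938, 0.972, 0.836 and 0.879 FPKM in DBA (1.99-fold higher in CAST, adjusted p = 2.31e-09), nearly as in naive ganglia (2.302-fold). All 3 had no overlap between the groups. The call of Fdft1, farnesyl-diphosphate farnesyltransferase, was lost with upper-quartile scaling (adjusted p = 0.101).

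Of 25 nuclear genes of oxidative phosphorylation, 3 (12%) were higher in CAST and 6 (24%) higher in DBA, against 26.4% and 21.4% of all genes. With upper-quartile scaling the counts were 1 and 9. The largest difference was that of Cox5b (1.49-fold, adjusted p = 2.8e-07). Transcripts of the mitochondrial genome were among the genes with the largest differences in FPKM, and copies of them in the nuclear genome may take some of their reads. mt-Co1 was at 7294, 6780.0, 8148 and 7696 FPKM in DBA and 3088, 3007, 3926 and 3830.5 FPKM in CAST (2.16-fold, adjusted p = 1.41e-09), and mt-Co2 and mt-Nd3 were 1.84-fold and 1.76-fold higher in DBA (adjusted p = 2.51e-05 and 0.00237). The ratios in naive ganglia were 2.23-fold, 2.003-fold and 2.11-fold. In both strains, mt-Nd3 was lower in replicates 1 and 2 than in replicates 3 and 4, at 424, 421, 661 and 655 FPKM in DBA and 228, 241, 350.1 and 409.9 FPKM in CAST, and the lowest DBA library lay just above the highest CAST library.

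Cell cycle genes gave 6 of 22 higher in CAST and 12 higher in DBA. These are 27.3% and 54.5%, against 26.4% and 21.4% of all genes. Birc5, survivin, a protein of dividing cells, was 2.101-fold higher in DBA (adjusted p = 3.62e-09), and Mcm6, a subunit of the replicative helicase, was at 0.598, 0.607, 0.661 and 0.598 FPKM in CAST and 0.217, 0.191, 0.203 and 0.218 FPKM in DBA (2.97-fold higher in CAST, adjusted p = 8.49e-16) and 5.13-fold higher in naive CAST. Glutathione and detoxification genes were divided, with 10 of 26 (38.5%) higher in CAST and 9 (34.6%) higher in DBA, against the same shares of all genes. The glutathione transferases Gstm2 and Gsta1 went opposite ways, Gstm2 2.37-fold higher in CAST (adjusted p = 2.11e-10) and Gsta1 6-fold higher in DBA (adjusted p = 2.91e-05), as in naive ganglia (3.203-fold and 6.86-fold).

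Single genes with the largest ratios were often near 0 in one strain. Sult3a1, a sulfotransferase, was at 0.351, 0.339, 0.352 and 0.333 FPKM in CAST and 0.0013, 0, 0.000602 and 0 FPKM in DBA, which in DBA is at most 3 estimated reads in a library (adjusted p = 1.25e-17). Fam213b, a prostamide reductase, was at 3.83, 4.35, 3.52 and 3.93 FPKM in DBA and 0.00557, 0.00495, 0.006502 and 0.000854 FPKM in CAST, with at most 3 estimated reads in a CAST library (adjusted p = 1.11e-16). Of 18010 protein-coding genes tested, only Sult3a1 in CAST and only Fam213b in DBA had at least 100 mean reads in one strain and no library above 3 reads in the other. In injured C57 ganglia the mean of estimated reads was 4.91 for Sult3a1 and 1165 for Fam213b. Both differences were called in naive ganglia (adjusted p = 1.4e-17 and 2.88e-16).

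Higher in CAST were also Gsdma3, a gasdermin (79.4-fold), Tspan10, a tetraspanin (61.6-fold), Rubcnl, a regulator of autophagy (48.4-fold), and Tas1r1, a subunit of the savoury taste receptor (48.2-fold), each called in naive ganglia too (47.9-fold, 80.1-fold, 37.3-fold and 30.9-fold). Kcnmb3, a subunit of calcium-activated potassium channels, was at 0.418, 0.118, 0.353 and 0.419 FPKM in CAST and 0.00103, 0.00676, 0.00381 and 0.00441 FPKM in DBA (adjusted p = 7.63e-06). CAST replicate 2 was the lowest of its group, as it was for Gad1, the enzyme that makes GABA, at 0.0869, 0.0104, 0.109 and 0.125 FPKM in CAST and 0.00256, 0.00256, 0.00309 and 0.00176 FPKM in DBA (adjusted p = 0.0203). The call of Gad1 was lost with voom on estimated reads (adjusted p = 0.0513) and without CAST replicate 3 or 4 (adjusted p = 0.0579 and 0.0719).

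Other large ratios in CAST were called with an interaction. Foxl1, a forkhead factor, was at 1.64, 1.74, 1.95 and 1.43 FPKM in CAST and 0.0672, 0.0884, 0.0796 and 0.0545 FPKM in DBA (23.3-fold, adjusted p = 1.24e-16), while its naive means were 0.0353 and 0.0301 FPKM (adjusted p = 0.89). The deposited table holds another entry for this gene, which was 17.8-fold higher in CAST (adjusted p = 8.68e-13). Klk4, a kallikrein protease, was at 1.68, 1.53, 1.46 and 1.84 FPKM in CAST and 0.0436, 0.0382, 0.0445 and 0.0224 FPKM in DBA (43.9-fold, adjusted p = 6.27e-18), although naive ganglia were 2.796-fold higher in DBA (adjusted p = 0.00206), and its interaction was 1.46 (adjusted p = 4.74e-15). Ms4a8a, a membrane protein of the same family as Ms4a7, was 30.8-fold higher in CAST (adjusted p = 1.82e-14), with an interaction of 0.47 (adjusted p = 1.81e-10).

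The same held for several genes higher in DBA. Lmx1a, a homeodomain factor, was at 0.0377, 0.0401, 0.0405 and 0.0411 FPKM in DBA and 0.000478, 0.000375, 0.000465 and 0.000302 FPKM in CAST (98.4-fold, adjusted p = 1.54e-20), with naive means of 0.000302 and 0.000218 FPKM. Cyp24a1, which breaks down vitamin D, was 62.01-fold higher (adjusted p = 4.37e-18), and Cyp26a1, which breaks down retinoic acid, was at 4.14, 3.44, 3.39 and 3.89 FPKM in DBA and 0.267, 0.353, 0.466 and 0.375 FPKM in CAST (10.2-fold, adjusted p = 1.24e-16). Lipn, a lipase, was 44.2-fold higher (adjusted p = 2.05e-16), and C1ql2, a secreted synaptic protein, was 5.71-fold higher (adjusted p = 1.17e-14). For all 5 the interaction was called (Cyp26a1 -1.73, C1ql2 -1.29).

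Glp1r, the receptor for glucagon-like peptide 1, was at 0.372, 0.372, 0.389 and 0.391 FPKM in DBA and 0.00362, 0.00276, 0.000755 and 0.00159 FPKM in CAST (175-fold, adjusted p = 4.11e-21) and 144-fold higher in naive DBA. The vomeronasal receptor gene Vmn1r179 (94.6-fold), the scavenger receptor gene Stab2 of sinusoidal vessels (31.1-fold) and Matn4, a matrilin of the matrix (23.8-fold), were likewise higher in DBA in both states. Fth1, the ferritin heavy chain that stores iron and has many processed pseudogenes, was among the genes with the largest differences in FPKM, at 455, 441, 456 and 454 FPKM in CAST and 351, 362, 364 and 353 FPKM in DBA (1.26-fold higher in CAST, adjusted p = 0.000123).

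A list of 8 genes in which DBA mice are known to carry functional variants was given whatever its values. Of these, 3 (37.5%) were higher in CAST and 2 (25%) higher in DBA, against 26.4% and 21.4% of all genes. Tyrp1, a pigment enzyme altered in brown coat colour, was at 0.574, 0.4498, 0.521 and 0.558 FPKM in CAST and 0.0895, 0.0657, 0.0852 and 0.116 FPKM in DBA (5.901-fold, adjusted p = 3.52e-07), Fscn2, a fascin linked to hearing loss, was 5.64-fold higher in CAST (adjusted p = 5.58e-06), and Gpnmb, which carries a stop codon in DBA/2J, was at 0.416, 0.532, 0.253 and 0.273 FPKM in CAST and 0.121, 0.08996, 0.0769 and 0.0772 FPKM in DBA (4.03-fold, adjusted p = 6.31e-05). Alad, an enzyme of heme synthesis whose gene is duplicated in DBA mice, was at 1.21, 1.26, 1.05 and 1.08 FPKM in DBA and 0.437, 0.404, 0.438 and 0.451 FPKM in CAST (2.66-fold, adjusted p = 3.53e-13), and Glo1, glyoxalase 1, was 1.15-fold higher in DBA (adjusted p = 0.00274).

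Myo5a, the motor altered in dilute coat colour, was at 0.445, 0.489, 0.422 and 0.45 FPKM in CAST and 0.3896, 0.359, 0.401 and 0.401 FPKM in DBA (adjusted p = 0.0623). It passed as higher in CAST with a pseudocount of 0.1, when only the injured CAST and DBA libraries were fitted, on log2(CPM + 0.5) and with voom (adjusted p = 0.0353, 0.0217, 0.0189 and 0.0187). Hc, complement component 5, was at no more than 0.00333 FPKM in a library, and Klrd1, a receptor of natural killer cells lacking from DBA/2J, was at 0.00854, 0.00325, 0.009197 and 0.00608 FPKM in CAST and 0.00997, 0.00332, 0.003503 and 0.00295 FPKM in DBA (adjusted p = 0.87 and 0.588). The labels do not give the DBA substrain, and variants were not analysed here.

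Markers of tissue around the ganglion differed between libraries. Of 10 adipocyte genes, 6 (60%) were higher in CAST and 1 (10%), Car3, was higher in DBA, against 26.4% and 21.4% of all genes. The 6 fell to 3 without CAST replicate 1 and to 2 without CAST replicate 2. Cfd, the adipocyte protease adipsin, was at 4.801, 6.895, 1.72 and 2.096 FPKM in CAST and 0.739, 1.37, 0.5397 and 0.476 FPKM in DBA (4.97-fold, adjusted p = 0.00325). Car3, a carbonic anhydrase of fat and muscle, was at 2.42, 2.27, 2.25 and 2.26 FPKM in DBA and 0.859, 1.15, 0.396 and 0.533 FPKM in CAST (3.13-fold, adjusted p = 0.000301), with an interaction of -1.35 (adjusted p = 0.00111). Its direction between the strains was opposite to that of Cfd, while within CAST both were higher in replicates 1 and 2 than in 3 and 4. Of 11 genes of pericytes and smooth muscle, 5 (45.5%) were higher in CAST and 1 (9.09%), Rgs5, was 2.69-fold higher in DBA (adjusted p = 1.34e-10). The 5 became 3 without CAST replicate 2, with upper-quartile scaling or when only the injured CAST and DBA libraries were fitted, and 2 were higher in DBA when only those libraries were fitted. Endothelial genes had 3 of 13 (23.1%) higher in CAST and 4 (30.8%) higher in DBA. These compare with 26.4% and 21.4% of all genes.

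Of 14 skeletal muscle genes, 0 were higher in CAST and 1 (7.14%), the shared marker Pvalb, was higher in DBA by limma, against 26.4% and 21.4% of all genes. In CAST, 1 was higher when only the injured CAST and DBA libraries were fitted, with a pseudocount of 0.1, on log2(CPM + 0.5) and with voom. The summed level of this list was 1.84 to 8.63 FPKM in CAST and 1.86 to 2.91 in DBA. Of 8 erythrocyte genes, 1 (12.5%) was higher in CAST and 3 (37.5%) were higher in DBA, against the same shares of all genes. The number higher in DBA was 5 without DBA replicate 2, 1 without CAST replicate 4, and 0 without CAST replicate 3, without DBA replicate 3 or when only the injured CAST and DBA libraries were fitted. The beta-globin genes Hbb-bs and Hbb-bt were 2.13-fold and 2.05-fold higher in DBA (adjusted p = 0.0168 and 0.0219) with overlapping libraries, and both calls were lost without CAST replicate 4 (adjusted p = 0.0504 and 0.0639), without DBA replicate 3 (adjusted p = 0.0778 and 0.0964) without CAST replicate 3 (adjusted p = 0.0638 and 0.0814), and when only the injured CAST and DBA libraries were fitted (adjusted p = 0.068 and 0.0778). That of Hbb-bt was also lost without DBA replicate 1 (adjusted p = 0.06).

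In genome build mm10, Ifit1 lies at chr19:34640871-34650009, B2m at chr2:122147686-122153083, Mrgprb4 at chr7:48198070-48199288, Cma1 at chr14:55941451-55944675, Inhba at chr13:16011851-16031621, Ccl8 at chr11:82115185-82116799 and Crh at chr3:19693401-19695396, all annotated as protein-coding in GENCODE M21. Beside those already mentioned, Ciita, Mrc1, Ccl6, Cd55, Cfb, Prdm12, Avil, Cebpd, Acvr1c, Sparcl1, Olig1, Mbp, Tnc, Lss, Gad1, Foxl1, Fam213b, Fdft1, Cyp24a1, Lipn, Stab2, Matn4, Glo1, Myo5a, Hc, Aldh1l1, Atf3 and mt-Co1 overlap another annotated gene. Reads of overlapping genes cannot be told apart here, since no source used here gives the use of strand in the counting.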

How the data were processed

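RNA-seq of dorsal root ganglia was analysed from the deposited FPKM (fragments for each kilobase of gene, scaled to library depth). Total RNA was extracted with Trizol and made into Illumina libraries, per the labels' protocols, and reads were aligned with STAR 2.3.0 to mm10, per the submitters' processing notes. The counting tool, its annotation and its use of strand were not given in the sources used here. FPKM times the genomic span of a gene in GENCODE M21 gave near-whole reads (68.0% of values between 0.5 and 100 reads lay within 0.05 of a whole number, against 10% by chance), so estimated reads and library totals were derived from span and FPKM, and gene symbols were taken from GENCODE M21. The totals are estimates, and reads are not counts of independent molecules.

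Genes needed 10 or more estimated reads in 4 or more libraries, or an FPKM of 0.1 or more for genes without a span, which removed 10928 and kept 27287, 907 of them without a span. All 24 libraries were fitted by limma 3.58.1 (statmod 1.5.0, R 4.3.3) to log2(FPKM + 1) with 6 group means, 18 residual degrees of freedom and a trended, robust empirical Bayes variance. Contrasts were injured CAST minus injured DBA, the same in naive ganglia, and their difference (the interaction). Tests were two-sided, p-values were adjusted by Benjamini and Hochberg over all genes tested, and genes were called at an adjusted p under 0.05. The log2(FPKM + 1) scale understates changes of low genes, so sizes are ratios of mean FPKM. The fit was also run on simulated data with the same relative spread for every gene and independent libraries. That run does not cover the splits between replicates or the single deviating libraries described above.

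Named were the 12 largest ratios and 6 largest FPKM differences in each direction among called protein-coding genes whose libraries did not overlap between the strains, with at least 500 mean reads in the higher strain, the 6 largest interactions in each direction, up to 4 called members of each list with the largest ratios, and a few set genes, 194 in all, of which a part is described and some are not reported here. Cpa3, Kit, Trpv1, Chrna3, Chrnb4, Fdft1, Ms4a2, Parp14 and Gja1 lie outside this rule and were chosen after their values were seen. The genes and lists were chosen with earlier results of these data known. Alternatives were a pseudocount of 0.1, no filter, only the groups compared, upper-quartile scaling, log2(CPM + 0.5) and voom on estimated reads, a block for the replicate number, and leaving out each injured library. Deviations of same-numbered injured libraries of the strains correlated across genes at 0.127, 0.129, 0.147 and 0.189. Libraries of unlike numbers correlated at -0.160 to 0.0974. The labels do not say that a number is shared, and the main fit has no term for it. By these values the numbers were taken to pair the libraries only in the alternative with a block.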

Additional observations from a re-analysis of the deposited data

Results flagged for a closer look

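Single libraries stood apart from the other 3 of their group for 25 of 294 combinations of a named gene and an injured group, and for 8 of 78 combinations of a gene list and an injured group, by Dixon's 95% limit. Chance gives about 1 in 20 such groups. In each comparison below, the value of the library in FPKM is followed by the range of the other 3.

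Replicate 2 of injured CAST was the highest for Aldh1l1 (0.0902 against 0.0755 to 0.0773). Injured CAST replicate 2 was the lowest for Fth1 (441 against 454 to 456) and for Fos (1.15 against 1.35 to 1.38). Replicate 3 of injured CAST was the highest for Mcm6 (0.661 against 0.598 to 0.607). Injured CAST replicate 3 was the lowest for Lss (1.67 against 1.83 to 1.85). Replicate 4 of injured CAST was the highest for Vmn1r179 (0.0212 against 0.00819 to 0.00922). Injured DBA replicate 1 was the highest for Gfra3 (2.96 against 2.81 to 2.82), for Klrd1 (0.00997 against 0.00295 to 0.0035) and for Car3 (2.42 against 2.25 to 2.27). Replicate 1 of injured DBA was the lowest for Cxcl13 (0.0171 against 0.0384 to 0.0419). Injured DBA replicate 2 was the highest for Rubcnl (0.103 against 0.0877 to 0.0897) and for Scn10a (3.31 against 2.73 to 2.81). Replicate 3 of injured DBA was the highest for B2m (32.9 against 20.7 to 22), for Iigp1 (0.603 against 0.0908 to 0.0989), for Gbp3 (0.46 against 0.157 to 0.199), for Gbp8 (0.241 against 0.0643 to 0.0759), for Gbp9 (0.346 against 0.0948 to 0.112), for H2-Q7 (1.25 against 0.739 to 0.811), for Crh (8.9 against 7.86 to 7.98), for Cxcl9 (0.605 against 0.0257 to 0.0808) and for Ifit3 (3.8 against 1.74 to 2). Injured DBA replicate 3 was the lowest for Tpsb2 (1.68 against 2.29 to 2.36), for Fabp7 (23.3 against 31.4 to 32.2) and for Gal (323 against 345 to 347). Replicate 4 of injured DBA was the highest for Vmn1r179 (1.47 against 1 to 1.02).

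For gene lists the values are means of log2(FPKM + 1) over the members. CAST replicate 1 was the highest for neutrophils (0.893 against 0.511 to 0.566). CAST replicate 2 was the lowest for neuron and sensory identity (3.52 against 3.54 to 3.54). CAST replicate 3 was the highest for growth-associated genes (3.55 against 3.44 to 3.45). CAST replicate 3 was the lowest for mechanoreceptor and proprioceptor genes (0.49 against 0.535 to 0.544). DBA replicate 2 was the highest for nociceptor genes (1.72 against 1.56 to 1.58). DBA replicate 3 was the highest for interferon-induced GTPases (0.942 against 0.341 to 0.374), for MHC class I presentation (1.77 against 1.45 to 1.5) and for skeletal muscle (0.228 against 0.154 to 0.166).

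The difference between the strains itself differed between injured and naive ganglia for 82 of the 147 genes named, by limma's interaction term at an adjusted p under 0.05. Over all genes tested this was 4217 of 27287. Genes were named in part for a large interaction or a large difference after crush, so their count reflects that choice and is no separate result. The values are CAST minus DBA after crush less CAST minus DBA in naive ganglia, on the log2(FPKM + 1) scale, and were positive for 36 and negative for 46.

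The interaction on the list of interferon response was 0.78 for Mx1, 2.12 for Mx2, 3.04 for Ifit1, 2.54 for Ifi27l2a, 2.27 for Isg15, 2.21 for Ifit3, 2.06 for Ifit3b, 2.05 for Bst2, 0.36 for Irf9 and 0.72 for Stat2. Genes of the list MHC class I presentation had values of 1.41 for B2m, 1.34 for H2-T23, 0.32 for H2-T24 and 0.71 for H2-Q7. For interferon-induced GTPases, these were 0.48 for Gbp3, 0.28 for Gbp8 and 0.35 for Gbp9. On the list of macrophages, the term was -0.13 for Ms4a7, 0.94 for Mpeg1 and -0.23 for Mrc1. The interaction on the list of reactive and repair glia was -0.26 for Olig1, -0.11 for Gdnf and -0.34 for Vim. Genes of the list nociceptor genes had values of -0.28 for Trpa1, -0.99 for Sst and 0.35 for Gfra3. For injury-induced transcription factors, these were -0.83 for Fos, -0.82 for Cebpd and 0.29 for Nfil3. On the list of growth-associated genes, the term was -1.81 for Gpr151, 0.49 for Plaur and -1.52 for Sprr1a. The interaction on the list of activin BMP and TGF-beta signalling was 0.15 for Inhba, -0.025 for Acvr1c and -1.25 for Fst. Genes of the list extracellular matrix and proteases had values of -0.20 for Cspg5, 0.22 for Thbs4 and -0.16 for Tnc. For chemokines and cytokines, these were 0.49 for Cxcl13, -2.13 for Ccl8 and -0.22 for Ccl6. Other listed genes had values of -0.63 for Cma1, -0.75 for Tpsb2, -1.18 for Thy1, 0.26 for H2-DMb1, -0.26 for Cd59a, 0.36 for Cfb, 0.094 for Gzmb and 0.02 for Cd8a. Members of the other lists gave 0.58 for Rgs5, -0.25 for Postn, -0.30 for Pvalb, -0.14 for Aldh1l1, -1.0 for Fabp7, -0.26 for Sparcl1, -0.039 for Ano1 and -1.42 for Crh. Values among further listed genes were -0.46 for Cckbr, -0.045 for Il11, -0.55 for Socs3, -0.067 for Sema5a, -0.063 for Nrp2, 0.037 for Gsta1, -0.16 for Gstm2 and 0.15 for Mcm6. The remaining members of lists gave -0.091 for Birc5 and -1.35 for Car3. Outside the lists, the values were 0.17 for Ifi213, 0.35 for Gsdma3, 1.46 for Klk4, 0.47 for Ms4a8a, 1.32 for Foxl1, -1.07 for Mcpt2, -0.051 for Glp1r and -0.056 for Lmx1a. Also outside the lists were -0.33 for Vmn1r179, -0.43 for Cyp24a1, -0.44 for Lipn, -0.20 for Matn4, -1.0 for Ifi202b, -1.73 for Cyp26a1 and -1.29 for C1ql2.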

How the results depend on the processing

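The counts of calls over all genes, of interferon, MHC class I and nociceptor genes higher in CAST, and of mast cell, satellite glia, Schwann cell, growth-associated and cholesterol genes higher in DBA kept within 1.5 times of the main value under 15 alternatives. The number of genes called ranged from 12241 to 13324 over alternatives that keep all libraries. Leaving out 1 library gave 12001 to 12633 calls, with 6518 to 7051 higher in CAST and 5325 to 5582 higher in DBA, 3657 to 4133 interactions, 33 to 35 interferon-response genes and 18 to 19 cholesterol genes. With the replicate block, 13324 genes were called, and the pairing changed no call of a gene named. Upper-quartile scaling moved the share of calls that were higher in CAST from 55.3% to 42.5%. Of 147 genes named, 130 kept direction and side of the threshold under all alternatives. Hc reversed its uncalled difference, to -2.9e-05 with upper-quartile scaling and to -6.68e-05 without CAST replicate 1, and the cause was not tested. Over the fits without 1 library its difference ranged from -6.68e-05 to 0.000556. Voom and log2(CPM + 0.5) use estimated reads, so genes without a span, 907 of those tested, were left out of them. Depth limits genes under about 10 estimated reads.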
